A study of Mus musculus with 19 samples.

Results

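The Fc gamma receptors are the receptors by which macrophages bind the constant part of immunoglobulin G. The transcripts described here are those of the activating receptors Fcgr1, Fcgr3 and Fcgr4, of their shared signalling chain Fcer1g and of the inhibitory receptor Fcgr2b. They were chosen as a family, by gene symbol, and all 5 were found among the 16941 genes measured. The libraries came from cultured cortical microglia, the resident macrophages of the brain, of C57BL/6 mice aged 10 to 11 months. The mice were wild type (WT) or carried hAPPJ20, a human amyloid precursor protein gene with the Swedish and Indiana mutations behind a PDGF promoter (APP). All cells had grown for 4 weeks in 10% serum and in M-CSF, the growth factor that keeps macrophages alive, at 5 ng/mL. Medium alone (vehicle) was then given, or 100 ng/mL of lipopolysaccharide (LPS), for 6 h, and every culture recovered for 16 h in fresh medium. QuantSeq 3′ libraries were made from 4 WT samples with vehicle and 5 with LPS, and from 5 APP samples with each. QuantSeq reads the end of each transcript. Nothing in the labels says which libraries are separate animals or cultures, and p-values therefore describe the spread among libraries, part of which may be technical.

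Activating Fc gamma receptors bind antibody-coated particles and signal through the tyrosine-based activation motif (ITAM) of the Fcer1g chain, which recruits the kinase Syk and starts phagocytosis. Fcgr2b carries an inhibitory motif (ITIM) instead and recruits the lipid phosphatase SHIP-1, the product of Inpp5d, so that the balance of both kinds sets how strongly a cell answers to immune complexes. In the brain these receptors are mostly found on microglia and border macrophages, and they take part in the clearance of antibody-bound amyloid. Fcgr1 is the high-affinity receptor and a classical target of interferon gamma, while the myeloid factor encoded by Spi1 supports several members.

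In the GENCODE annotation of GRCm38, Fcgr2b (ENSMUSG00000026656, chr1:170958617-170976547, minus strand), Fcgr4 (ENSMUSG00000059089, chr1:171018920-171029761, plus strand) and Fcgr3 (ENSMUSG00000059498, chr1:171051174-171064935, minus strand) lie within 106.3 kb of each other. Fcer1g (ENSMUSG00000058715, chr1:171229572-171234365, minus strand) lies on the same chromosome, and these 4 genes together span 275.7 kb. Fcgr1 (ENSMUSG00000015947, chr3:96282909-96293969, minus strand) stands apart on chromosome 3. Fcgr3 and Fcgr2b have near-identical stretches: 17.7% of the 31-base words of the longest Fcgr3 transcript also occur in Fcgr2b transcripts. In the last 500 bases, where QuantSeq reads start, the share was 0% for both genes.

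The RefSeq promoter windows of GRCm38.p6 run from 250 bases before to 50 bases after the transcription start, and all 5 members were matched by symbol. Shown are Fcgr1, the member with the largest LPS difference (chr3:96293920-96294219, minus strand), Fcgr4, another activating receptor (chr1:171018676-171018975, plus strand), and the inhibitory Fcgr2b (chr1:170976022-170976321, minus strand). Capitals mark matches, on either strand, to 4 motifs bound by factors of macrophage activation and identity: the interferon gamma activation site GAS (TTCNNNGAA), the interferon-response repeat (GAAA, any 2 bases, GAAA), the core GAGGAA of the Spi1 product, and the NF-kB consensus. No match overlapped another.
Fcgr1: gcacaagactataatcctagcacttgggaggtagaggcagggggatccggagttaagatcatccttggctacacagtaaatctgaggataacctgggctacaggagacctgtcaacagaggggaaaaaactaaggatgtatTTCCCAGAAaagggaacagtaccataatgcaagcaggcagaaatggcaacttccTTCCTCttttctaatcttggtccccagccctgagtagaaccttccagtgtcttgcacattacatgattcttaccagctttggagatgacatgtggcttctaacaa
Fcgr4: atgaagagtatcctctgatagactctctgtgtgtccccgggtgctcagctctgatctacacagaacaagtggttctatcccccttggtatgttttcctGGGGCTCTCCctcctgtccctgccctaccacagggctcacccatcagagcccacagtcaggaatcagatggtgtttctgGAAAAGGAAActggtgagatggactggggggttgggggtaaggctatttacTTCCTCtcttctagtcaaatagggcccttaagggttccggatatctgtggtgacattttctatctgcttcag
Fcgr2b: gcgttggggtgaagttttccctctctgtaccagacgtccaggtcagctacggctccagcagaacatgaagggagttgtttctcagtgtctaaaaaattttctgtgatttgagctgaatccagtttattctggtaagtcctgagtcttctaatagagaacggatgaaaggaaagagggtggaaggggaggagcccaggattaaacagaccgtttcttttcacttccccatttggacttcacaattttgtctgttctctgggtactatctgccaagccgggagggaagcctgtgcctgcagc

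In the Fcgr1 window the GAS match TTCCCAGAA begins 109 bases before the start, and 8.3% of 32851 RefSeq mouse promoter windows of 300 bases hold such a match. Fcgr1, Fcgr3 and Fcgr4 each hold 1 GAGGAA core, read here on the reverse strand as TTCCTC, a match found in 28.3% of all windows. Fcgr4 holds the interferon-response repeat (3.44% of windows), and Fcgr3 and Fcgr4 each hold 1 NF-kB match (4.51% of windows). Fcgr3 has 2 start windows, and its matches are those of the first listed only. The Fcgr2b and Fcer1g windows held no match to these 4 motifs. These are letter matches in a fixed window, and binding was not measured.

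Library totals ran from 13065257 to 31248988 counts, and the 5 members had between 45 and 22707 counts per library. Levels are given as CPM, the count of a gene scaled to a common library total, after TMM adjustment of the totals (trimmed mean of M values). A library with 0 counts would allow up to 0.0963 to 0.249 CPM, the level of 3 counts, which covers counting error only. The 15 microglia and macrophage markers were all measured. Csf1r, Aif1, Itgam and Tyrobp were present in every library, whereas the homeostatic microglia markers P2ry12, Tmem119 and Sall1 were at 0 in 6, 3 and 2 of the 19 libraries and reached at most 28.6, 17.2 and 13.5 CPM. The markers of border-associated macrophages summed to between 611 and 5616 CPM. By group means most of that sum was Pf4 (554 to 5029 CPM), followed by Mrc1 (48.2 to 769 CPM), and F13a1 reached at most 68.1 CPM. Cd163, Lyve1 and Cbr2 were at 0 in 3, 5 and 7 of the 19 libraries and reached at most 24.7, 6.22 and 12.2 CPM. Other cells that carry Fc receptors left little signal: B cell markers (2 of 6 measured) summed to at most 3.42 CPM, the mast cell marker Kit (1 of 6 measured) reached at most 6.72 CPM, and natural killer and T cell markers (5 of 7 measured) summed to at most 6.27 CPM. Monocyte and neutrophil markers (6 of 9 measured) summed to 54.5 to 251 CPM in the vehicle groups and to 137 to 432 CPM in the LPS groups, and their part in the results was not tested. Dendritic cell markers (5 of 6 measured) summed to at most 19.4 CPM.

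The libraries numbered 57 to 60, one in each group, stood apart. The 15 macrophage markers summed to between 1125 and 2214 CPM in these 4 libraries and to between 3929 and 8363 CPM in the other 15. Fcgr1 was at 4.07 to 11.7 CPM in them against 14.4 to 110 CPM elsewhere, Fcgr4 at 2.07 to 5.80 against 6.85 to 44.9 CPM, and Fcer1g at 129 to 236 against 274 to 1088 CPM. These 3 ranges did not overlap, while those of Fcgr3 (58.2 to 209 against 144 to 468 CPM) and Fcgr2b (69.8 to 125 against 63.2 to 238 CPM) did. Of all 14113 genes tested, 2.18% were lower in all 4 of these libraries than in every other library. The libraries were set apart after their marker levels were seen, so the 3 members are given as a description. The 11 markers of fibroblasts, pericytes and smooth muscle, all measured, summed to between 2606 and 5586 CPM in the libraries 57 to 60 and to between 1245 and 4334 CPM elsewhere. They exceeded the macrophage markers in all 4 (2606 against 2214 CPM, 2927 against 1854, 4784 against 1737 and 5586 against 1125), and in library 3 by a small margin (4334 against 4297 CPM). The part of these cells in the members' levels was not tested. In bulk RNA, fewer macrophages and less receptor RNA per macrophage cannot be told apart.

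**Figure D1:**
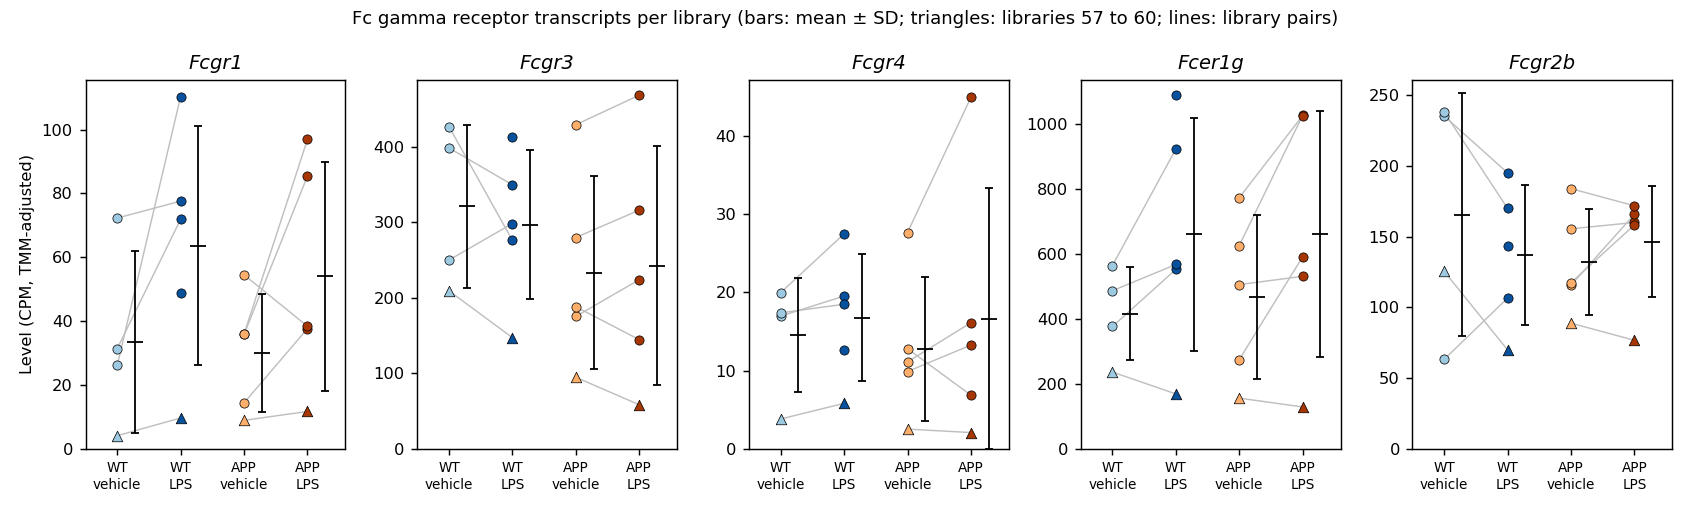
Level of each Fc gamma receptor transcript (vertical axis, TMM-adjusted CPM, linear) in the 19 libraries by group, with the mean ± SD beside the points, triangles for the libraries numbered 57 to 60 and grey lines joining libraries with consecutive numbers. Fcgr1 reached 72.3 CPM in WT vehicle and 110 CPM in WT LPS, and the triangles are the lowest points of Fcgr1, Fcgr4 and Fcer1g in every group.

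The first question was whether the activating receptors differed 16 h after LPS had been withdrawn. Fcgr1 had the largest difference: its fitted level was 1.90 times as high with LPS in WT and 1.81 times in APP, but the groups overlapped widely. Fcer1g was higher by means too, and Fcgr3, Fcgr4 and Fcgr2b had smaller averaged changes. For Fcgr4 the 95% interval, −0.73 to 1.31 on the log2 scale, still allowed a sizeable change. When all libraries were compared by group, none of the 5 members passed the test, and at most 0.0213% of all genes did for LPS. Fcgr1, averaged over the genotypes, passed in a fit that compares libraries with consecutive numbers, where 1.5% of all genes passed. That call was kept in 3 of 9 fits that left out a pair of such libraries, and limma voom did not make it.

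Fcgr1 in WT vehicle was at 26.1, 31.4, 72.3 and 4.07 CPM in replicates 1 to 4, and in WT LPS at 48.8, 110, 71.9, 77.6 and 9.63 CPM in replicates 1 to 5. In APP it was at 14.4, 35.8, 35.9, 54.5 and 8.89 CPM with vehicle and at 37.6, 85.4, 96.9, 38.4 and 11.7 CPM with LPS. The groups overlapped in both genotypes, since WT vehicle replicate 3 lay above 3 of the 5 WT LPS libraries and APP vehicle replicate 4 above 3 of the 5 APP LPS libraries. Group means were 33.5 ± 28.5 (SD, n = 4) and 63.7 ± 37.3 CPM (n = 5) in WT, and 29.9 ± 18.4 and 54.0 ± 35.8 CPM (n = 5 each) in APP. The log2 change with LPS was 0.93 ± 0.70 (SE) in WT and 0.85 ± 0.65 in APP, each with an adjusted p of 1 (edgeR quasi-likelihood test, Benjamini-Hochberg over all genes). Averaged over the genotypes it was 0.89 ± 0.48, with a 95% interval of −0.10 to 1.88 (edgeR adjusted p = 0.86).

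Of all 14113 genes tested, the same edgeR test called 0% for LPS in WT, 0% in APP and 0.0213% (2 higher, 1 lower) for LPS averaged over the genotypes, so that 0 of 5 members called is no different from the background. At an unadjusted p under 0.05 there were 516, 679 and 867 such genes in the 3 comparisons, and no member was among them. DESeq2 on the same counts called 89, 76 and 178 genes, again without a member. The CPM ranges of vehicle and LPS libraries did not overlap for 1.3% of genes in WT and 0.588% in APP, and for 0 of the 5 members in either genotype.

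Fcer1g, the ITAM chain that the activating receptors need to reach the surface, was at 564, 376, 487 and 236 CPM in WT vehicle and at 1088, 923, 552, 567 and 169 CPM in WT LPS. In APP the levels were 274, 626, 773, 505 and 156 CPM with vehicle and 591, 1026, 1026, 531 and 129 CPM with LPS. The lowest library of each LPS group lay below all vehicle libraries of its genotype, while the highest lay well above them. Means were 416 ± 142 and 660 ± 358 CPM in WT, and 467 ± 252 and 661 ± 378 CPM in APP. Averaged over the genotypes, the log2 change was 0.58 ± 0.36, with a 95% interval of −0.16 to 1.33 (edgeR adjusted p = 0.939).

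Fcgr3, the low-affinity receptor for immune complexes, stood at 321 ± 108 CPM with vehicle and 297 ± 98.7 with LPS in WT, and at 233 ± 128 and 242 ± 158 CPM in APP. Its averaged log2 change with LPS was −0.03 ± 0.31 (95% interval −0.67 to 0.61). Fcgr4, which binds some subclasses of immunoglobulin G in mouse myeloid cells, was the member with the fewest counts, at 14.5 ± 7.27, 16.8 ± 8.11, 12.8 ± 9.19 and 16.6 ± 16.7 CPM in the same order. APP LPS replicate 3, at 44.9 CPM, held the highest Fcgr4 level of the 19 libraries, and its vehicle counterpart with the neighbouring number the second highest, at 27.6 CPM. The averaged Fcgr4 change was 0.29 ± 0.49 (95% interval −0.73 to 1.31).

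The inhibitory receptor Fcgr2b was at 235, 63.2, 238 and 125 CPM in WT vehicle and at 143, 195, 107, 170 and 69.8 CPM in WT LPS. In APP it was at 155, 116, 117, 184 and 88.8 CPM with vehicle and at 160, 166, 158, 172 and 76.7 CPM with LPS. WT vehicle spanned the whole range seen in WT LPS, and 4 of the 5 APP LPS libraries lay between 158 and 172 CPM. The log2 change with LPS was −0.27 ± 0.35 in WT and 0.15 ± 0.33 in APP, and averaged it was −0.06 ± 0.24 with a 95% interval of −0.56 to 0.44. Of the averaged LPS changes, that of Fcgr2b had the narrowest interval.

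**Figure D2:**
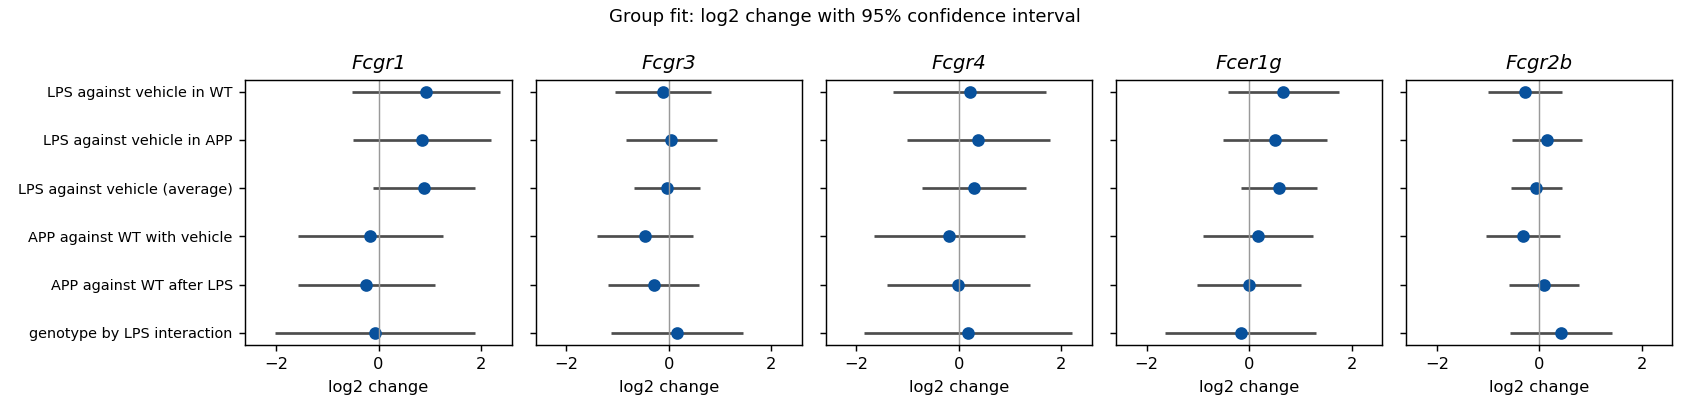
Log2 change of each transcript (horizontal axis) with its 95% confidence interval (bars) from the edgeR group fit for the 6 comparisons named on the left. Every interval includes 0, and the averaged LPS change of Fcgr1, from −0.10 to 1.88, comes nearest to leaving it out.

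Neighbouring libraries were then compared. Vehicle and LPS libraries of a genotype carry consecutive library numbers, such as 9 and 10, and in 9 such pairs deviations from the group means ran together. The labels do not say that such a pair shares a culture. Within pairs, Fcgr1 was higher with LPS in 8 of 9. It went from 26.1 to 110 CPM in the WT pair 9 and 10, from 31.4 to 71.9 in 21 and 22, from 72.3 to 77.6 in 41 and 42 and from 4.07 to 9.63 in 57 and 58. In APP it went from 14.4 to 37.6 CPM in the pair 3 and 4, from 35.8 to 85.4 in 7 and 8, from 35.9 to 96.9 in 11 and 12, from 54.5 down to 38.4 in 51 and 52 and from 8.89 to 11.7 in 59 and 60. The 2 vehicle libraries that were highest in Fcgr1, numbers 41 and 51, belonged to the 2 pairs with the lowest changes, 1.07-fold and 0.704-fold. Across all genes tested, 3.65% were higher with LPS in at least 8 of the 9 pairs.

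With the pairs as a block, Fcgr1 rose: its averaged log2 change was 0.98 ± 0.23 (edgeR adjusted p = 0.039), and it was the only member called in a fit that called 211 of 14113 genes, or 1.5%. It was 1.16 ± 0.35 in WT (edgeR adjusted p = 0.456, 0.149% of genes called) and 0.81 ± 0.31 in APP (edgeR adjusted p = 0.433, 0.588% called). The averaged call was lost when the pair 3 and 4, 7 and 8, 9 and 10, 11 and 12, 21 and 22 or 57 and 58 was left out, with edgeR adjusted p-values of 0.071, 0.134, 0.158, 0.108, 0.101 and 0.0693. Without 41 and 42, 51 and 52 or 59 and 60 it was kept (edgeR adjusted p-values of 0.0139, 0.0126 and 0.0289), as it was without the unpaired library 5 (edgeR adjusted p = 0.0408). The log2 change lay between 0.82 and 1.15 in the 9 fits that left out a pair. DESeq2 with the same pairs gave 0.98 (adjusted p = 7.6e-04), and also called Fcgr1 in WT (1.15, DESeq2 adjusted p = 0.0454) but not in APP (0.82, DESeq2 adjusted p = 0.0894). Limma voom with the pair as a random effect gave 0.96 with an adjusted p of 0.364 (0.482% of genes called), and edgeR with replicate numbers as blocks 1.22 with an adjusted p of 0.298. The sum of the 6 measured monocyte and neutrophil markers was higher with LPS in 9 of 9 pairs, as were 0.935% of all genes. Its mean log2 change was 1.24 ± 0.86 (SD). Most of that sum was S100a8 (15.6 to 227 CPM) and Cxcr2 (7.16 to 194 CPM), while Ly6c2, Mpo and Camp were at 0 in 17, 13 and 7 of the 19 libraries and Ccr2 reached at most 13.2 CPM. In the group fit, 4 of the 4 tested markers had a log2 change above 0 in WT and 2 of 4 in APP, against 49.2% and 46.9% of all genes. The part of these markers in the Fcgr1 result was not tested.

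Fcer1g was higher with LPS in 7 of 9 pairs, as was Fcgr4, and 10.3% of all genes reached at least 7. For Fcer1g the pairs that were lower with LPS were 57 and 58 (236 to 169 CPM) and 59 and 60 (156 to 129 CPM), both of the libraries poor in macrophage markers. Its paired log2 change was 0.33 ± 0.13 (edgeR adjusted p = 0.388). Without the libraries 57 to 60 it was 0.53 ± 0.12 and Fcer1g was called (edgeR adjusted p = 0.0135, 2% of 14083 genes called), and Fcgr1 was at 1.02 ± 0.26 (edgeR adjusted p = 0.0417). Leaving these libraries out was tried after their values were known. Fcgr4 was lower with LPS in the pairs 7 and 8 (12.8 to 6.85 CPM) and 59 and 60 (2.51 to 2.07 CPM). Fcgr3 and Fcgr2b were each higher with LPS in 4 of 9 pairs, with mean log2 changes of −0.17 ± 0.40 (SD) and −0.02 ± 0.51.

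**Figure D3:**
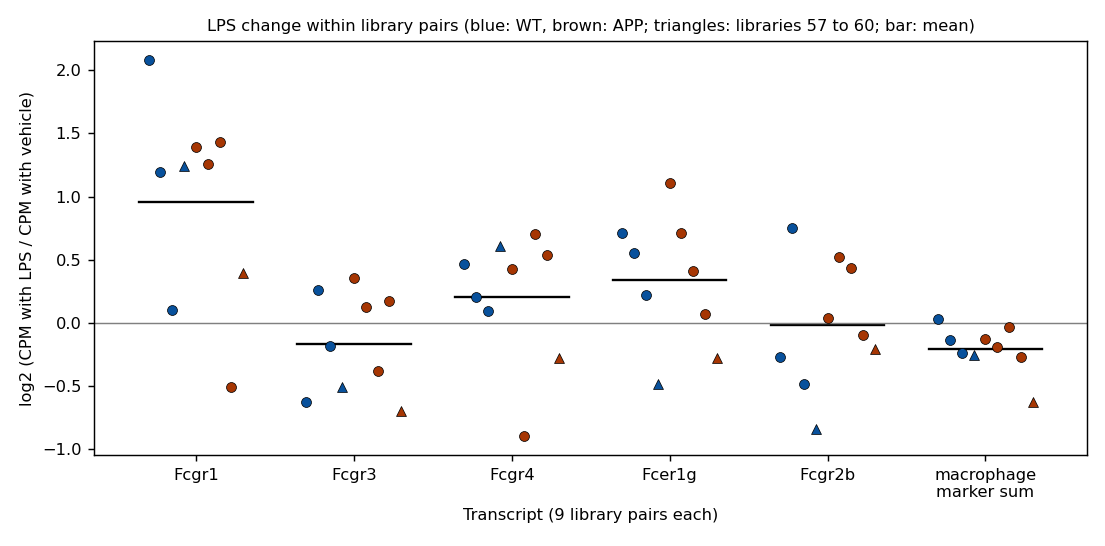
Log2 of LPS over vehicle CPM (vertical axis) in the 9 pairs of libraries with consecutive numbers for each transcript and for the sum of 15 macrophage markers, with WT in blue, APP in brown, triangles for the libraries 57 to 60 and a bar at the mean. Fcgr1 lies above 0 in 8 of 9 pairs, and the macrophage marker sum below 0 in 8 of 9.

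The summed macrophage markers moved the other way. They were lower with LPS in 8 of 9 pairs, by a mean log2 change of −0.21 ± 0.19 (SD), so each member was also expressed as a percentage of this sum in the same library. On this scale, set up after the values were seen, Fcgr1 went from 0.536 ± 0.384% to 1.06 ± 0.441% in WT and from 0.531 ± 0.184% to 1.08 ± 0.272% in APP. Fcer1g went from 7.92 ± 1.83% to 11.2 ± 2.09% and from 8.39 ± 1.36% to 13.3 ± 2.81%. The libraries 57 to 60 fell within the range of the others for Fcer1g (8.97% to 11.4% against 6.39% to 16.9%). Fcgr4 also lay within it (0.144% to 0.313% against 0.113% to 0.590%). Fcgr2b and Fcgr3 lay towards the upper end in these libraries and past it, at 3.77% to 6.82% against 1.18% to 4.07% and at 5.18% to 9.44% against 1.90% to 7.70%. For Fcgr1, WT vehicle replicate 4 stayed lowest at 0.184%, and the APP library numbered 60 stood at 1.04%, near the mean of its group.

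Relative to the markers, Fcgr1, Fcgr4 and Fcer1g were each higher with LPS in 8 of 9 pairs, with mean log2 changes of 1.16 ± 0.70, 0.41 ± 0.47 and 0.54 ± 0.41 (SD). Fcgr3 was higher in 5 pairs (0.04 ± 0.40) and Fcgr2b in 6 (0.19 ± 0.49). Of all genes, 13.1% were higher with LPS in at least 8 of 9 pairs on this scale, against 3.65% in CPM, so the divisor itself raises such counts.

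**Figure D4:**
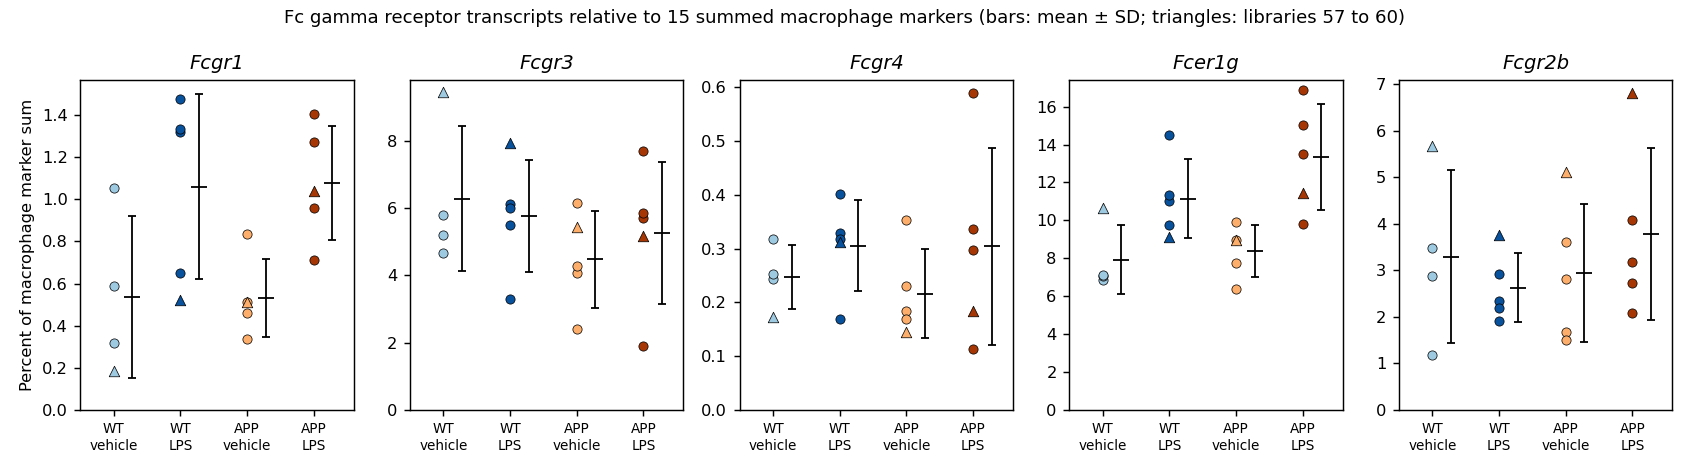
Each transcript as a percentage of the summed CPM of 15 macrophage markers in the same library (vertical axis), by group, with mean ± SD and triangles for the libraries 57 to 60. Fcgr1 averages 0.536% and 1.06% in WT and 0.531% and 1.08% in APP, and Fcer1g is likewise higher in the LPS groups by mean.

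Activating receptors were then set against Fcgr2b in the same library, as the log2 ratio of counts with 0.5 added to each count. The size of such a ratio depends on how well each 3′ end is counted, so only differences between libraries were read. The Fcgr1 ratio averaged −2.71 ± 1.74 (SD) with vehicle and −1.39 ± 0.90 with LPS in WT, and −2.38 ± 0.91 and −1.72 ± 0.86 in APP. It was thus higher with LPS by 1.32 in WT (exact two-sided permutation p = 0.167) and by 0.66 in APP (exact permutation p = 0.278). Averaged over the genotypes the difference was 0.99 (exact permutation p = 0.0696, adjusted p = 0.833 over 15 ratio tests).

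Within pairs the Fcgr1 to Fcgr2b ratio was higher with LPS in 8 of 9, by 0.97 ± 0.85 (SD). An exact sign-flip test gave p = 0.00781, the smallest possible being 0.00391, and 0.0703 after adjustment over 9 such tests. The highest paired change, 2.35, came from WT and the lowest, −0.41, from APP. For Fcgr3 the ratio was higher in 4 of 9 pairs (mean −0.15 ± 0.45, exact sign-flip p = 0.359), and for Fcgr4 in 6 of 9 (0.22 ± 0.83, exact sign-flip p = 0.438). None of the 15 group tests passed.

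Counts of the 3 activating receptors summed to 2.63 ± 1.40 per count of Fcgr2b with vehicle and 2.81 ± 0.653 with LPS in WT, and to 2.12 ± 1.19 and 2.0 ± 0.891 in APP. Single libraries ran from 0.939 in APP LPS replicate 5 to 4.72 in WT vehicle replicate 2, so the spread within groups was larger than the difference between them. Most of the summed counts were those of Fcgr3, so the sum tells little about Fcgr1.

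**Figure D5:**
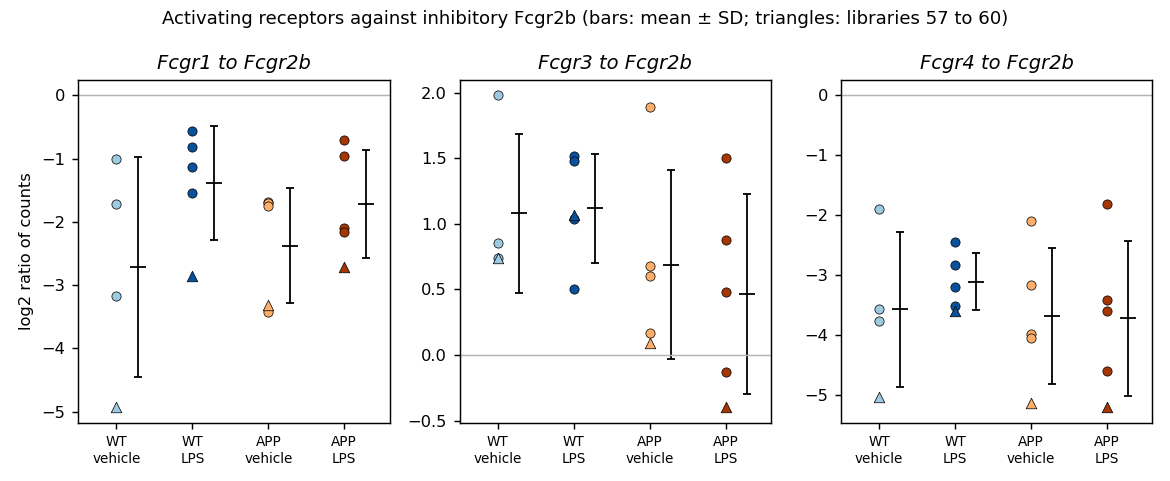
Log2 ratio of the counts of Fcgr1, Fcgr3 and Fcgr4 to those of Fcgr2b in the same library (vertical axis), by group, with mean ± SD and triangles for the libraries 57 to 60. The Fcgr1 ratio averages −2.71 in WT vehicle and −1.39 in WT LPS with overlapping ranges, and the Fcgr3 ratio of WT vehicle replicate 2 stands at 1.98, away from the other 3.

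The second question was whether APP microglia differed from WT. None of the 5 members differed between genotypes beyond the spread of libraries. With vehicle the log2 differences were −0.16 ± 0.68 for Fcgr1, −0.46 ± 0.45 for Fcgr3, −0.19 ± 0.71 for Fcgr4, 0.17 ± 0.52 for Fcer1g and −0.32 ± 0.35 for Fcgr2b. After LPS they were −0.24 ± 0.64, −0.29 ± 0.43, −0.01 ± 0.67, 0.00 ± 0.49 and 0.10 ± 0.33. All had an edgeR adjusted p of 1, and 0% of the 14113 genes were called in either comparison by edgeR (402 and 482 at an unadjusted p under 0.05), while DESeq2 called 64 and 69 genes. The ranges of the genotypes did not overlap for 0.843% of genes with vehicle and 0.496% after LPS, and overlapped for all 5 members in both. The 95% intervals still allowed sizeable differences, for Fcgr1 after LPS from −1.57 to 1.10.

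Fcgr3 was lower by mean in APP than in WT under both treatments, yet APP LPS replicate 2, at 468 CPM, held the highest Fcgr3 level of all libraries and APP vehicle replicate 2, at 429 CPM, the second highest. Its ratio to Fcgr2b was lower in APP by 0.39 with vehicle (exact permutation p = 0.405) and by 0.66 after LPS (exact permutation p = 0.111, adjusted p = 0.833). Whether the LPS change differed between genotypes was tested as an interaction. It was −0.07 ± 0.94 for Fcgr1, 0.17 ± 0.62 for Fcgr3, 0.17 ± 0.98 for Fcgr4, −0.17 ± 0.71 for Fcer1g and 0.42 ± 0.48 for Fcgr2b, each with an edgeR adjusted p of 1. The interaction had 0% of genes called by edgeR (385 at an unadjusted p under 0.05) and 99 called by DESeq2.

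The rest of the receptor pathway was followed in gene lists that were chosen with earlier results of these data known. Of 23 kinases and adaptors below the ITAM, 0 rose and 0 fell with LPS in the group fit, and the median averaged log2 change was 0.15, against −0.02 over all genes. None of the 23 was called with the pairs as a block either, in a fit that called 1.5% of all genes. Syk, the kinase that docks on the ITAM, was at 42.8 ± 13.5 CPM with vehicle and 54.7 ± 15.7 with LPS in WT, and at 35.7 ± 16.9 and 38.5 ± 23.0 CPM in APP. The Src-family kinases Lyn and Fgr, which phosphorylate the ITAM, had averaged changes of 0.14 ± 0.24 and 1.84 ± 1.46, the latter at levels of at most 6.65 CPM.

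Among 9 phosphatases and docking proteins on the inhibitory side, 0 rose and 0 fell in the group fit, with a median of 0.16. With the pairs as a block none of them was called, against 1.5% of all genes. Inpp5d, encoding the SHIP-1 phosphatase that Fcgr2b recruits, was at 42.5 ± 28.6 and 32.2 ± 16.3 CPM in WT and at 46.8 ± 22.4 and 26.8 ± 14.2 CPM in APP, an averaged change of −0.60 ± 0.39 (edgeR adjusted p = 0.965). Ptpn6, encoding the phosphatase SHP-1, had an averaged log2 difference of 0.38 ± 0.36, Ptpn11 (SHP-2) of 0.22 ± 0.17 and Inppl1 (SHIP-2) of −0.06 ± 0.17, and none of these passed. Of the 5 tested genes of 14 other Fc receptors, 0 were called in the group fit or with the pairs as a block. Fcgrt, the neonatal receptor that recycles immunoglobulin G, was at 42.1 ± 7.31 and 27.7 ± 7.47 CPM in WT and at 32.1 ± 2.57 and 24.2 ± 15.4 CPM in APP (averaged change −0.51 ± 0.34). Trim21, a cytosolic antibody receptor, had an averaged change of 0.49 ± 0.58, and the B cell receptors Fcrl1 and Fcrl5 stayed at group means of at most 2.28 and 1.45 CPM.

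Receptors that share the ITAM or ITIM principle were compared with the Fc receptors. None of the 18 tested ITAM receptors and adaptors and none of the 15 ITIM receptors was called in the group fit (medians 0.12 and 0.03). Tyrobp, the ITAM adaptor that serves Trem2 rather than antibodies, was at 1004 ± 427 and 992 ± 487 CPM in WT and at 1073 ± 518 and 882 ± 501 CPM in APP. Its partner Hcst had an averaged change of −0.18 ± 0.57 and Clec7a, a receptor for fungal glucans with an ITAM-like motif, −0.29 ± 0.43. With the pairs as a block, 2 of the 18 were called, in a fit that called 1.5% of all genes: Trem2, a lipid-sensing receptor, fell by 1.29 ± 0.16 on the log2 scale (edgeR adjusted p = 1.7e-04), and Clec4e, a glycolipid receptor that signals through the Fcer1g chain, rose by 1.68 ± 0.29 (edgeR adjusted p = 0.00318). The list was chosen with earlier results of these data known, so that share cannot set it apart from the background.

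On the ITIM side the averaged log2 differences of the group fit were 0.45 ± 0.26 for Pirb, −0.24 ± 0.24 for Lilrb4a, −0.28 ± 0.28 for Sirpa, the receptor of the CD47 signal, and 0.60 ± 0.26 for Cd33. With the pairs as a block 1 of 15 was called, against 1.5% of all genes: the collagen receptor Lair1 fell by 0.57 ± 0.12 (edgeR adjusted p = 0.0178). A single call in 15 genes is too few to set the list apart from that background. Of 22 regulators of Fc receptor transcription, 0 were called in the group fit (median 0.04). Spi1 was at 0.08 ± 0.39, Irf1 at 0.01 ± 0.32 and Irf8 at −0.44 ± 0.30 on the averaged log2 scale. With the pairs as a block 1 of 22 was called, again against 1.5% of all genes and again too few to set the list apart: Jak2, a kinase of the interferon gamma receptor, rose by 0.92 ± 0.16 (edgeR adjusted p = 0.00383).

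The members did not follow each other closely once the libraries 57 to 60 were set aside. Over the other 15 libraries the Pearson r of log2 CPM was 0.66 between Fcgr1 and Fcer1g, 0.33 between Fcgr1 and Fcgr4, 0.17 between Fcgr1 and Fcgr3 and −0.48 between Fcgr3 and Fcgr4. With all 19 libraries these values were 0.84, 0.757, 0.565 and 0.524, and libraries share their macrophage content and in pairs possibly their culture. The genes most like each member over the 19 libraries were taken from 8234 with a mean of at least 10 CPM. For Fcgr1 these were Glrx, Cd52 and Cyfip1 (r 0.938, 0.921 and 0.92; 0.817, 0.811 and 0.769 without libraries 57 to 60), for Fcer1g Fth1, Cd52 and Adgre1 (0.982, 0.956 and 0.955; 0.958, 0.867 and 0.899). For Fcgr4 they were Spi1, Aif1 and Arpc5 (0.934, 0.922 and 0.91; 0.752, 0.767 and 0.829), and for Fcgr3 Alox5ap, Nfam1 and Pf4 (0.895, 0.894 and 0.872; 0.763, 0.733 and 0.792). Fcgr2b was most like Secisbp2l, Top1 and Csf1r, with a lower r of 0.824, 0.821 and 0.794 (0.749, 0.759 and 0.784 without them).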

How the data were processed

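Poly(A) transcripts of 19 libraries were read by QuantSeq 3′ sequencing, after RNA with an integrity number above 8.5 had received ERCC spike-ins and molecular identifiers, per the labels' protocols. Deposited by the authors were estimated counts per gene, and the submitters' processing notes name FastQC, Trimmomatic, kallisto and DESeq2. Not given in the sources used here: versions, genome build, annotation and any collapsing of identifiers. Rounding to whole numbers changed no value, and 0 columns were left unused. The label of WT LPS replicate 1 gives library number 5, its file 6.

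Groups came from the sample titles. All 19 libraries entered 1 edgeR quasi-likelihood fit with a coefficient per group (edgeR 4.0.16, limma 3.58.1, DESeq2 1.42.0, R 4.3.3), with TMM scaling, filterByExpr (14113 genes kept, 2828 left out) and Benjamini-Hochberg adjustment, and genes were called at an adjusted p under 0.05. Ratios to Fcgr2b were tested by exact permutation. The scripts were tested on simulated data with a smaller spread between libraries than these data have. That test checks the code and does not measure error rates or power here. Members and gene lists were chosen with earlier results of these data known. The text names all members, the first 4 measured genes of each list and list genes called, and the 3 genes most alike, except for list genes that are not reported here.

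Consecutive library numbers, taken from the labels, were checked as pairs: over 8239 genes with a mean of at least 10 CPM, deviations from the group means correlated at 0.229 to 0.557 in the 4 WT and 0.231 to 0.562 in the 5 APP pairs. Over all genes tested the WT pair 41 and 42 reached 0.0959, under the limit of 0.1. Replicate numbers match these pairs in APP but not in WT (−0.2 to 0.114). Limma voom, the macrophage-relative scale, DESeq2 with pairs and the paired fits without a pair, without libraries 57 to 60 or without library 5 were added after seeing the data. Other alternatives were another scaling, other filters and pseudocounts, fits of only the groups compared, DESeq2, blocks, and each library left out.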

Additional observations from a re-analysis of the deposited data

Results flagged for a closer look

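In each of the 4 groups the highest and lowest library were compared with their neighbours for the 5 transcripts and the 3 ratios, 32 groups of values in all, of which 2 held a library far from the others. Chance alone flags about 1 in 20 such groups. The log2 ratio of Fcgr3 to Fcgr2b stood at 1.98 in WT vehicle replicate 2, while the next of the 4 libraries was at 0.858, a gap of 0.903 of the whole range. Fcgr2b itself was at 63.2 CPM in that library. The level of Fcgr2b in APP LPS replicate 5, one of the libraries poor in macrophage markers, was 76.7 CPM, with the next of the 5 libraries at 158 CPM, a gap of 0.858 of the range. The part of the marker content in these values was not tested.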

How the results depend on the processing

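The alternatives gave 1408 values, of which 1260 were rated unchanged and 112 changed direction, and 0 of those 112 were called under the alternative. For tested member changes and ratios, unchanged meant the same direction and side of the threshold. For numbers of genes called it meant an equal or similar number. On the macrophage-relative scale it meant a shift smaller than the largest SD of log2 CPM among the groups compared. The numbers of genes called moved most. For LPS in WT, LPS in APP, LPS averaged, APP against WT with vehicle, APP against WT after LPS and the interaction, edgeR called 0, 0, 3, 0, 0 and 0 genes and DESeq2 89, 76, 178, 64, 69 and 99. Without the libraries 57 to 60, edgeR called 4 (LPS in APP), 31 (averaged) and 1 (APP against WT after LPS), and limma voom called 3, 9 and 68 for the 3 LPS comparisons. With library pairs as a block, 21, 83 and 211 genes were called, and with replicate numbers as a block, which do not pair the WT libraries, 2 in APP, 39 averaged and 1 for the interaction. Leaving out 1 library at a time gave 0 to 2 genes (LPS in APP), 0 to 11 (averaged) and 0 to 1 (APP against WT after LPS), with 11 reached without APP LPS replicate 5. The causes were not tested. Fcgr1 averaged over the genotypes was past the threshold with library pairs (0.98) and not in the group fit (0.89, 0.70 to 1.24 with 1 library left out). The other settings that called a member were fits with the same library pairs, given in the report. Fcgr1 and Fcer1g with LPS kept their direction under every setting run. Some changes of members took the other sign, with a size of at most 0.626. For APP against WT after LPS, Fcgr4 was at 0.0128 (DESeq2), 0.0126 (DESeq2's scaling in edgeR), 0.0085 (mean of at least 10 CPM) and 0.0568 (without 57 to 60), and Fcer1g at −0.00111 (no filter) and −0.0647 (voom). Fcer1g with vehicle was at −0.093 (voom). The Fcgr1 interaction was 0.0401 without 57 to 60. With replicate numbers as a block, LPS changes were 0.103 (Fcgr3, WT), 0.0297 (Fcgr2b, WT), −0.0832 (Fcgr3, APP), 0.01 and 0.0828 (Fcgr3 and Fcgr2b, averaged), and interactions −0.186 (Fcgr3) and −0.487 (Fcgr4). With library pairs as a block, Fcgr3 in APP was at −0.0827 and the interactions of Fcgr4 and Fcer1g at −0.232 and 0.152, and under voom these 3 were −0.0813, −0.0604 and 0.0283. With 1 library left out, LPS in WT ran from −0.277 to 0.0581 (Fcgr3) and −0.11 to 0.427 (Fcgr4), LPS in APP from −0.33 to 0.393 and −0.418 to 0.876, and LPS averaged from −0.222 to 0.14, −0.105 to 0.542 and, for Fcgr2b, −0.205 to 0.0469. APP against WT with vehicle ran from −0.529 to 0.543 (Fcgr1), −0.68 to 0.0791 (Fcgr4) and −0.0911 to 0.389 (Fcer1g), and after LPS from −0.556 to 0.0554, −0.811 to 0.274, −0.245 to 0.266 and, for Fcgr2b, −0.0701 to 0.259. Interactions ran from −0.787 to 0.285 (Fcgr1), −0.217 to 0.507 (Fcgr3), −0.626 to 0.668 (Fcgr4) and −0.413 to 0.099 (Fcer1g). Among ratios to Fcgr2b, without 57 to 60 Fcgr1 with vehicle (APP against WT) was at −0.18 and Fcgr3 with LPS in WT at −0.0571, and with library pairs the latter was −0.0553. With 1 library left out, the Fcgr1 ratio with vehicle ran from −0.414 to 0.894, the Fcgr3 ratio with LPS from −0.0698 to 0.345 (WT), −0.479 to 0.0796 (APP) and −0.217 to 0.062 (averaged), and the Fcgr4 ratio from −0.0363 to 1.01, −0.514 to 0.362 and −0.037 to 0.486, and with vehicle from −0.607 to 0.438. Fcgr4 had the fewest counts of the members, with 45 in its lowest library, APP LPS replicate 5. The part of depth in its spread was not tested.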
